A study of Mus musculus with 65 samples.

Results

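The genes described here are 52 mouse genes that act in G2 and M phase, the part of the cell cycle in which a cell that has copied its DNA prepares to divide and then divides. They were picked by name from a written list, not by a measured value, though the list was chosen with earlier results of these data known. Of them 51 are among the 10407 genes in the tables. Cks2, a small partner of the mitotic kinase, has no row there, so its level was not analysed, but its promoter is among those described below. By the labels, the 65 libraries each hold the RNA of 1 neuronal progenitor of a CD1 mouse embryo, collected by Patch-seq through a glass pipette. Markers of other cell types were also read in them, as given below. A first group holds 20 wild-type cells of embryonic day 12 (E12) and a second one 26 wild-type cells of embryonic day 15 (E15), both marked with FlashTag, a dye that labels cells dividing along the ventricle. The third holds 19 progenitors of embryonic day 15 transplanted into a brain of embryonic day 12, called transplanted cells below. Because animals, litters and hosts are not named in the labels, a group was treated as a single sample, with no p-value, and the spread given is that between cells.

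Entry into mitosis depends on Cdk1 bound to B-type cyclins, and exit from it on the anaphase-promoting complex, a ubiquitin ligase that Cdc20 activates and that Ube2c supplies with ubiquitin. Between these steps microtubules form the spindle, kinetochores built on centromeres attach chromosomes to it, and a checkpoint holds anaphase back until all are attached. In the developing cortex apical progenitors divide at the ventricular surface and replicate their DNA away from it, so transcripts of these genes mark a stage of the cycle rather than a cell type. Many of them are transcribed late in the cycle, through promoter elements bound by the DREAM and B-Myb complexes and by the factor NF-Y.

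Promoters of the members carried the elements known from late cell cycle genes more often than promoters at large. RefSeq promoters (GRCm38.p6, 250 bases before to 50 after the start) were matched by symbol for 46 of the 52 genes, with 51 promoters in all. The cell cycle homology region (CHR), searched as TTTGAA or TTCGAA on both strands, stood in 37 of these promoters (72.5%) and in 19.2% of all 32851 promoters. The CCAAT box, the NF-Y site, searched as CCAAT on both strands, stood in 39 (76.5%) against 37.4%, and at least 2 of them in 30 (58.8%) against 11.7%. Both elements were present in 31 member promoters (60.8%), against 7.52% of all promoters, 9.09% of the 33 promoters of S phase genes and 48.2% of the 56 promoters of further mitotic genes. The CHR alone was in 15.2% of S phase promoters and 62.5% of those of further mitotic genes. CCAAT was frequent in S phase promoters as well, at 66.7%, with at least 2 in 45.5%. Their matches overlapped each other in 1 member promoter. CHR matches lay near the start, with 37.3% of member promoters holding one in the 50 bases after it, against 2.46% of all promoters. CCAAT matches were most frequent in the 50 bases before the start, in 56.9% against 9.03%. A match describes these letters and is not a site shown to be bound.

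**Figure D1:**
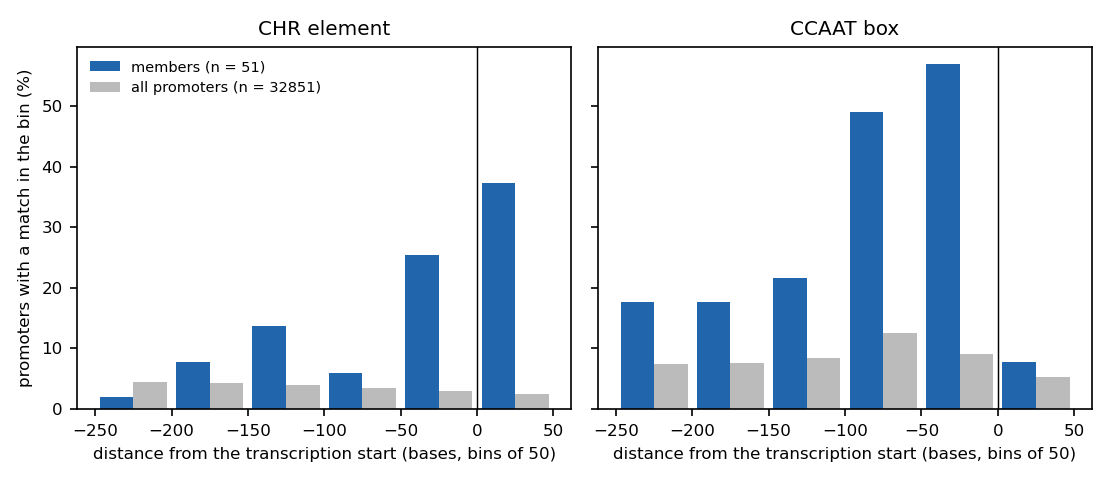
Share of promoters (%) with a match starting in each 50-base bin, by distance from the transcription start in bases, for the CHR element and the CCAAT box. Blue bars are the 51 promoters of members and grey bars all 32851 promoters, and the blue bars are tallest beside the start, at 37.3% for the CHR and 56.9% for CCAAT.

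The following stretches run from 160 bases before to 30 after the start, 5′ to 3′ along the gene's strand, with CHR and CCAAT matches in capitals (TTCAAA and ATTGG are matches on the other strand). They are shown because the levels of these genes are described in most detail below: summed over all libraries, the first 4 were higher at E15 than at E12 and the last 2 lower.
Cdc20, chr4:118437314-118437503, minus strand: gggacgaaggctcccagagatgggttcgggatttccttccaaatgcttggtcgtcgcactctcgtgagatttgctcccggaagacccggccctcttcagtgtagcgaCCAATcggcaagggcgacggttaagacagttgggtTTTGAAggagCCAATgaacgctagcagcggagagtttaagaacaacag
Cenpa, chr5:30666726-30666915, plus strand: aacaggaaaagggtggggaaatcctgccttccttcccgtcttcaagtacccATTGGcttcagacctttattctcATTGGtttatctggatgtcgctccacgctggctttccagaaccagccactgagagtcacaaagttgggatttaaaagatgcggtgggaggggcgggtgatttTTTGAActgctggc
Ube2c, chr2:164769769-164769958, plus strand: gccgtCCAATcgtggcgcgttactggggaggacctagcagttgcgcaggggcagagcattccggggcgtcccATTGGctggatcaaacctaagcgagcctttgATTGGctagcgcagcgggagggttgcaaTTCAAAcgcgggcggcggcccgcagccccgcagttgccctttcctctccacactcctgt
Hmmr, chr11:40733408-40733597, minus strand: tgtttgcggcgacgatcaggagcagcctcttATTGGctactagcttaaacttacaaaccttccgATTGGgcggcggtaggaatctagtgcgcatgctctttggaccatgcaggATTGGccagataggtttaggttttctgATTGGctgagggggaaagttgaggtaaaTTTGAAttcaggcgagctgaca
Ttk, chr9:83834529-83834718, plus strand: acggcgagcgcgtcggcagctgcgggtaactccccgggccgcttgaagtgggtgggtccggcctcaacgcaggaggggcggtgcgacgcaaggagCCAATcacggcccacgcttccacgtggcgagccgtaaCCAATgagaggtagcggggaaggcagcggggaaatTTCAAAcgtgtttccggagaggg
Lbr, chr1:181842372-181842561, minus strand: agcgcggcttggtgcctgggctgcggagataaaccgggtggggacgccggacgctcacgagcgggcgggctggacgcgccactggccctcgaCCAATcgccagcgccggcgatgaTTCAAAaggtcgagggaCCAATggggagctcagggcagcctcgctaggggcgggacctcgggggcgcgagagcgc
All 6 stretches hold 1 CHR match and at least 2 CCAAT matches. This does not hold for every member: the promoters of Tacc3, G2e3 and Nuf2 have 0 matches of either. The first base of the CHR match lies at -18 in Cdc20, 17 in Cenpa, -29 in Ube2c, 9 in Hmmr, 8 in Ttk and -45 in Lbr, counted in bases from the start.

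Levels are counts per 1000000 reads over the genes in the tables (CPM), for 1 cell or for a whole group from its pooled reads. In parentheses after a group's level stand exact 95% Poisson limits, which leave out the spread between cells and PCR duplication. Libraries held 10928 to 1635767 reads at E12, 11449 to 4560871 at E15 and 22358 to 3622411 among transplanted cells. In 16 libraries, 11 of E15 and 5 of transplanted cells and 0 of E12, more than 8000 genes had reads, and they are called many-gene libraries here. Apical progenitor markers (19 measured) summed to 2406 CPM in the many-gene E15 libraries and 22621 CPM in the other 15, against 11079 CPM at E12, and no cell was without them (lowest cells 2389, 1237 and 1831 CPM in E12, E15 and transplanted cells). Markers of ventral telencephalon and interneurons (15 measured) summed to 4594, 709 and 380.2 CPM in these sets, and those of microglia and macrophages (16 measured) to 4816, 1427 and 91.7 CPM. Cortical neuron markers (14 measured) summed to 5709, 3159 and 1192 CPM in the same sets. In E15 over E12 cells 8 of these 14 were called higher, beside 25.3% of all genes, and 7 without the many-gene libraries, beside 24.2%. In the same comparison 15 of 15 ventral and interneuron markers and 16 of 16 of microglia and macrophages were called higher. Without the many-gene libraries 6 of 13 and 14 of 14 tested were. Transplanted replicates 8 and 18, which are not many-gene libraries, had 26215.5 and 8190 CPM of microglial and macrophage markers, so dropping those libraries leaves such RNA in. Erythroid markers (5 measured) summed to 2958 CPM at E12, 2636 at E15 and 15773 in transplanted cells. In transplanted over E15 cells 5 of 5 were called higher, beside 4.71% of all genes, and 5 of 5 without the many-gene libraries, beside 18.7%. Their median ratio of 2.63 was 0.103 without transplanted replicate 19, which is not a many-gene library. With any cell left out only Hba-x was called higher. The main results are therefore given with and without the many-gene libraries, and the part of other cell types in them was not tested.

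The summed level of the 51 genes overlapped widely between the groups. E12 cells ranged from 1535 to 19173 CPM with a median of 4749, E15 cells from 505 to 15316 with a median of 7580.5, and transplanted cells from 1249 to 14178 with a median of 7762. The highest cell of all was one of E12 and the lowest one of E15. The reads of each group added up gave 6781 CPM (6708 to 6854) at E12, 8763 CPM (8733 to 8793) at E15 and 8073 CPM (8024 to 8123) in transplanted cells. With the many-gene libraries left out, the E15 sum was 6193 CPM, under that of E12, and the transplanted sum 9036 CPM. Of the reads behind the latter value 67.2% came from transplanted replicate 19. Leaving out every library above 7000 genes, which drops that replicate, gave 5724 CPM at E15 and 6701 CPM in transplanted cells. The labels also name 8 pools without defining them. E15 had the higher level than E12 in 6 of 8 pools, and in 3 of 6 once the many-gene libraries were dropped, while transplanted cells were above E15 cells in 1 of 7 pools and above E12 cells in 3 of 7.

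**Figure D2:**
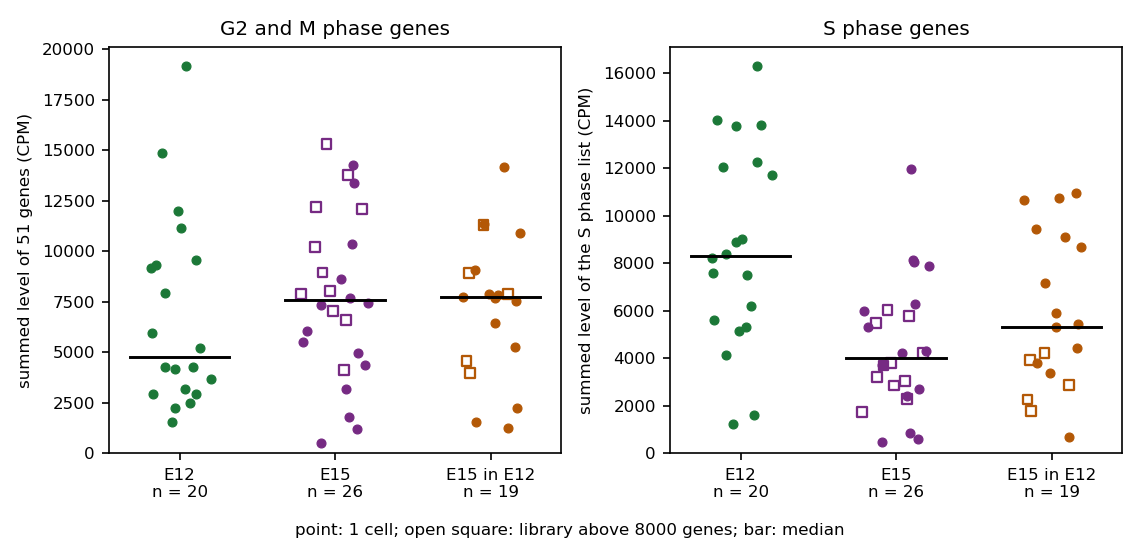
Summed CPM of the 51 G2 and M phase genes (left) and of 42 S phase genes (right) in each cell, by group. Points are cells, open squares many-gene libraries and bars medians (4749, 7580.5 and 7762 CPM on the left), and the ranges of the groups overlap in both panels.

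More members were detected in E15 cells, whose libraries were deeper. The median cell had reads of 22.5 members at E12, 43.5 at E15 and 31 in transplanted cells. Thinned to 25000 reads a cell, which kept 18, 24 and 17 cells and left out 2 shallower ones in each group, the medians were 19, 36 and 27. At the same depth but outside the many-gene libraries they were 19, 19 and 20.5, against 41 in the many-gene E15 libraries.

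Set against S phase genes, such as the replication licensing factors of the Mcm family, the balance differed between E12 and the other groups. The members' sum was 0.858 of the S phase sum at E12, 2.16 at E15 and 1.66 in transplanted cells, with per-cell medians of 0.786, 1.98 and 1.55. The members exceeded the S phase genes in 8 of 20 E12 cells, 23 of 26 E15 cells and 13 of 19 transplanted cells. Outside the many-gene libraries this held for 12 of 15 E15 cells and 8 of 14 transplanted cells, and the per-cell medians were 1.31 and 1.23. The median ratio was thus above that of E12 in both groups with and without these libraries, and nearer to it without them. The S phase sum itself was 7904 CPM at E12, 4048 at E15 and 4860.1 in transplanted cells, and 4731 and 7716 CPM in the latter groups outside the many-gene libraries. Outside those libraries transplanted replicate 19, at 8697 CPM of S phase genes, held 55.7% of all transplanted reads. Summed transplanted levels outside those libraries, here and below, therefore weigh that cell most. Across cells of a group the log2 sums of members and S phase genes had Pearson's r of 0.34 over 20 E12 cells, 0.83 over 26 E15 cells and 0.61 over 19 transplanted cells. These are descriptions over cells, each pair of sums coming from 1 library. The members' sum had r of 0.38, 0.5 and 0.39 with the number of genes detected and of 0.09, 0.45 and 0.17 with the number of reads.

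**Figure D3:**
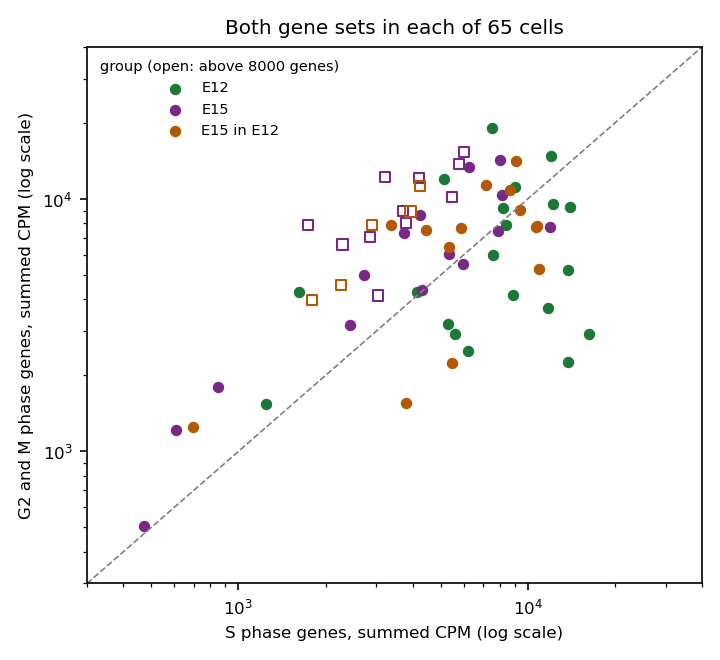
Summed CPM of the G2 and M phase genes against that of the S phase genes in each of 65 cells, on log axes. Open squares are many-gene libraries and the dashed line marks equal sums: 23 of 26 E15 cells and 8 of 20 E12 cells lie above it.

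Gene by gene, E15 cells had higher summed levels than E12 cells for 36 of the 51 members and lower ones for 15. Ratios are log2 of (CPM + 1) of one group over another, genes needed 5 CPM in either group, and a gene counts as called when the ratio is at least 1 in size (2-fold). The median member stood at 0.44 (0.33 to 0.7 with any 1 cell left out), where the median of all 10193 genes tested was -0.03. Members were called higher in 13 cases (25.5%), against 25.3% of all genes, so their share is that of the background. Only Ttk was called lower (1.96%), against 20.3% of all genes. Calls that held with any cell left out were 8 higher, of Cdc20, Cdc25c, Cenpa, Cenpf, Gas2l3, Hmmr, Psrc1 and Ube2c, and 0 lower, where 19.3% and 6.97% of all genes held. Dropping the many-gene libraries gave a median of -0.01, with 25 members higher and 26 lower, and 11 members changed sign. It left 7 called higher and 8 lower, beside 24.2% and 21.6% of all genes. Called in the same direction with and without these libraries were Cdc20, Cdc25c, Cenpa, Gas2l3, Hmmr and Tubb4b, higher, and Ttk, lower.

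Transplanted cells were set against the same E15 cells and the same E12 cells, so the comparisons share samples. Against E15 cells 15 members were higher and 36 lower, and the median was -0.16 (-0.31 to -0.06 with any cell left out) beside -0.08 over all genes. Lbr was the 1 member called, lower, also with any cell left out. The shares of all genes were 4.71% higher and 11.8% lower, and 0.866% and 6.27% with any cell left out. Dropping the many-gene libraries turned the direction, with 34 of 50 members higher and a median of 0.46, beside -0.13 over all genes. There 7 were called higher and 5 lower, beside 18.7% and 28% of all genes. Replicate 19 held most of those transplanted reads. With every library above 7000 genes dropped the members stood at 0.11, beside -0.22 over all genes.

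Against E12 cells 33 members were higher and 18 lower in transplanted cells, and the median was 0.34 (0.22 to 0.61 with any cell left out) beside -0.09 over all genes. Members were called higher in 14 cases and lower in 4, where 22.9% and 24.7% of all genes were. With any cell left out Cdc20, Cdc25c, Gas2l3 and Hmmr were still called higher and Hjurp, Lbr and Ttk lower, beside 15.2% and 9.07% of all genes. Dropping the many-gene libraries gave a median of 0.48 over 50 members, beside -0.16 over all genes. There 14 were called higher and 6 lower, beside 22.5% and 29.8% of all genes. The sign of the median did not hold on every treatment of depth. It was -0.11 with libraries above 7000 genes dropped, beside -0.31 over all genes, so members still stood above the median gene. When each cell was thinned to 25000 reads it was -0.053.

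**Figure D4:**
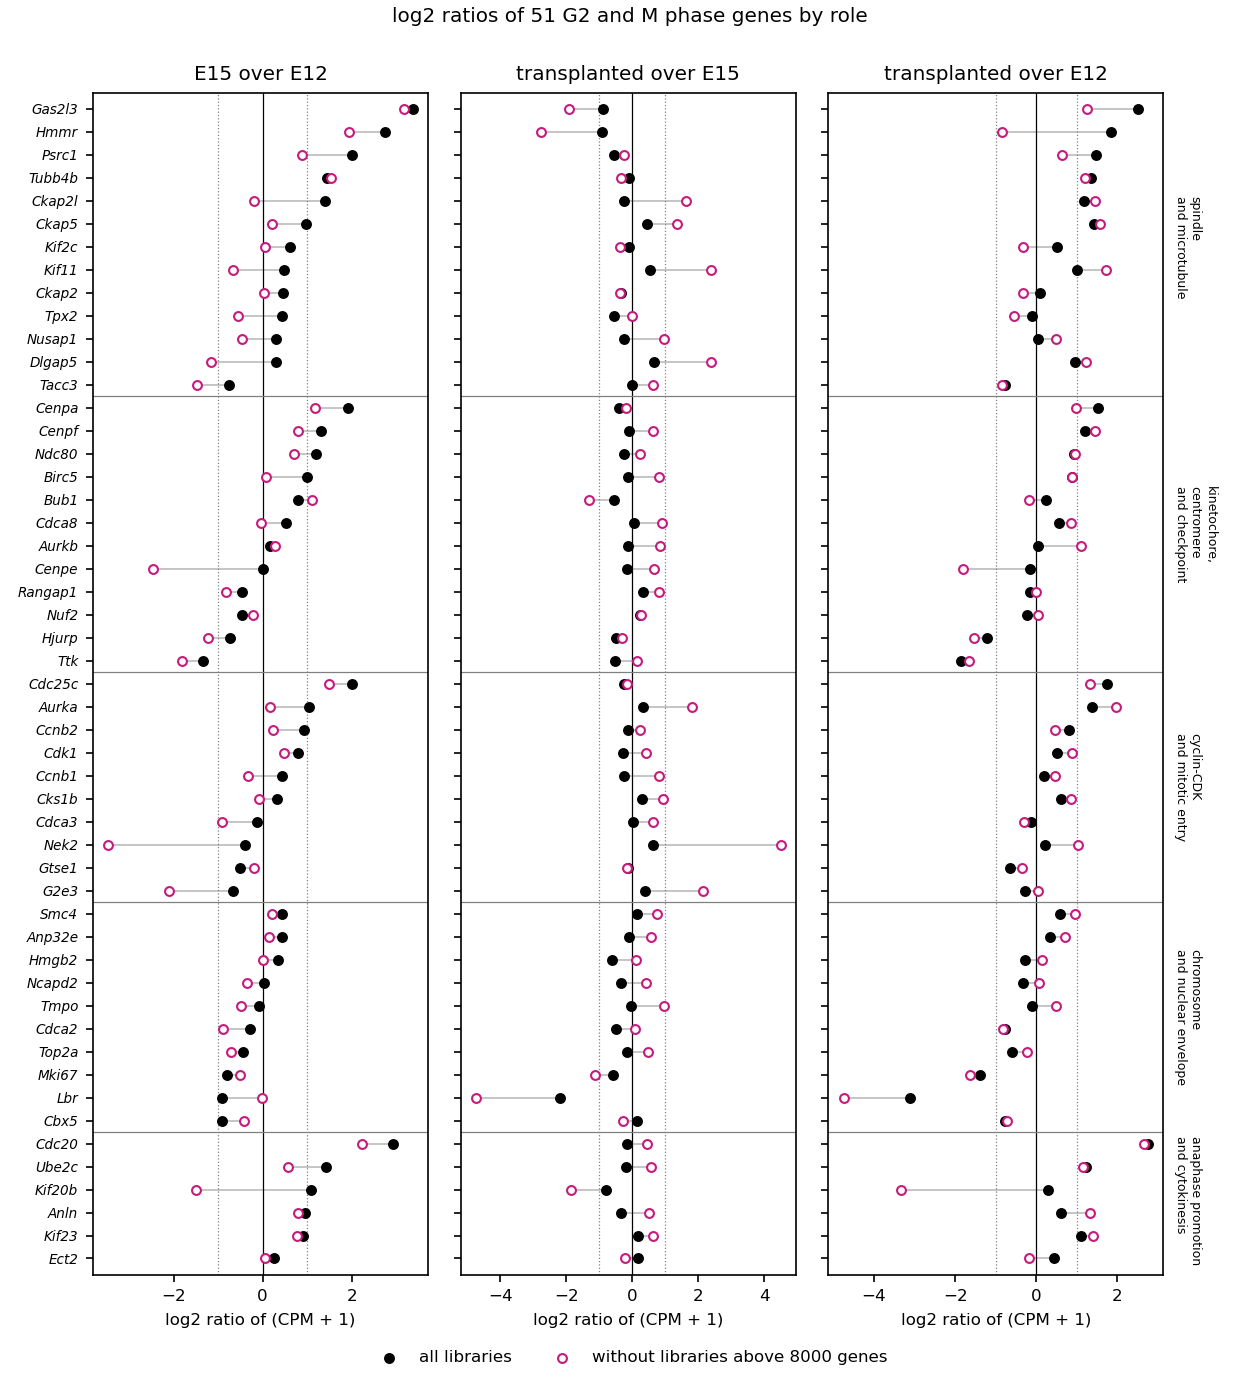
log2 ratio of (CPM + 1) for each of the 51 genes in the 3 comparisons, grouped by role; dotted lines mark ratios of 1 in size. Black points use all libraries and open points leave out the many-gene libraries. In transplanted over E15 cells 36 of 51 black points lie below 0 and 34 of the 50 open points tested lie above it.

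Genes of anaphase and cytokinesis had the highest median of the 5 roles between E15 and E12. All 6 were higher at E15, with a median of 1.02 (0.49 to 1.46 with any cell left out), and all 6 were higher in transplanted than in E12 cells, with a median of 0.85. In E15 over E12 cells 5 of 6 were higher with the many-gene libraries dropped and 2 of 6 with all above 7000 genes dropped, where the median was -1.33.

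Cdc20, the activator of the anaphase-promoting complex at the metaphase to anaphase transition (chr4:118432901-118437352, minus strand, GRCm38, here and below in GENCODE vM21), had a called ratio over E12 in both groups. E12 cells lay between 0 and 518 CPM with a median of 6.74, E15 cells between 0 and 799 with a median of 247, and transplanted cells between 0 and 1044 with a median of 199.7. The medians of the E15 and transplanted cells were far above that of E12, though the ranges overlap and each group held cells at 0. Summed levels were 44.3 CPM (38.6 to 50.6), 344 CPM (338 to 350.1) and 306 CPM (296 to 315). The E15 over E12 ratio was 2.93 (2.37 to 3.32 with any cell left out), 2.23 without the many-gene libraries and 1.58 without all above 7000 genes, and E15 was higher in 7 of 8 pools. In transplanted over E12 cells it was 2.76 (2.2 to 3.15), with the transplanted level higher in 3 of 7 pools. At 25000 reads a cell 7 of 18 E12 cells, 20 of 24 E15 cells and 12 of 17 transplanted cells had a read. Elovl1, also in the tables, overlaps Cdc20 on the other strand, and whether counting used strand is not given in the sources used here.

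Ube2c, the ubiquitin-conjugating enzyme of the same complex (chr2:164769898-164778822, plus strand), was read in 18 of 20 E12, 26 of 26 E15 and 17 of 19 transplanted cells. Single cells ranged from 0 to 699.7 CPM with a median of 94.1 at E12, from 1.7 to 1227 with a median of 329 at E15, and from 0 to 1125 with a median of 298 in transplanted cells. The groups overlap, with the E12 median lowest. Its E15 over E12 ratio was 1.42 (1.31 to 1.7 with any cell left out), 0.58 without the many-gene libraries and -1.3 without all above 7000 genes, so its direction depended on the libraries kept. Kif20b, a kinesin of cytokinesis, also turned, from 1.08 to -1.49 without the many-gene libraries, where 2 of 15 E15 cells had a read of it. Kif23, the motor of the central spindle, had a transplanted over E12 ratio of 1.09, which was 0.53 without E12 replicate 5 and -0.34 when each cell was thinned to 25000 reads.

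Spindle and microtubule genes were mostly higher than at E12. In E15 over E12 cells 12 of 13 were higher and 5 were called, with a median of 0.61, and in transplanted over E12 cells 11 of 13 were higher and 7 called, with a median of 1.01. Over all genes 25.3% and 22.9% were called higher in these comparisons. Without the many-gene libraries the medians were 0.03 over 13 genes and 0.56 over the 12 tested. Tacc3, a stabiliser of kinetochore fibres, was the 1 of the 13 lower at E15, with a ratio of -0.75.

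Hmmr, a spindle assembly protein also known as the hyaluronan receptor RHAMM (chr11:40701395-40733422, minus strand), was read in 5 of 20 E12 cells, 17 of 26 E15 cells and 9 of 19 transplanted cells. Its highest cells stood at 109, 264 and 147 CPM, its median at 36.9 CPM at E15 and at 0 in the other groups. All 11 many-gene E15 libraries had reads of it, and 6 of 15 others did. Summed levels were 9.71 CPM (7.16 to 12.9), 70.8 CPM (68.1 to 73.5) and 37.1 CPM (33.8 to 40.6), and E12 replicate 2 held 66.7% of the E12 reads. The E15 over E12 ratio was 2.74 (2.27 to 4.01 with any cell left out) and 1.94 without the many-gene libraries. In transplanted over E12 cells it was 1.83 with all libraries and -0.85 without the many-gene ones, where it rested on 23 reads.

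Psrc1, a microtubule-binding protein that helps chromosomes congress, stood at 16.2 CPM (12.8 to 20.1) at E12, 68.1 CPM (65.5 to 70.8) at E15 and 46.5 CPM (42.8 to 50.4) in transplanted cells. Its E15 over E12 ratio was 2.01, and 0.89 without the many-gene libraries. Gas2l3, which links microtubules to actin, had 3 reads in 1 of 20 E12 cells, so its fitted ratio is not printed, and was read in 14 of 26 E15 and 5 of 19 transplanted cells. Tubb4b, a tubulin, had a ratio of 1.44 for E15 and 1.35 for transplanted over E12 cells, and of 1.53 and 1.19 without the many-gene libraries. Thinned to 25000 reads, its transplanted over E12 ratio was -0.25. GENCODE lists Tubb4b-ps1 and Tubb4b-ps2, pseudogenes that could share its reads, so its counts are uncertain.

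Other spindle genes depended on the libraries kept. Ckap2l, a spindle protein of neural progenitors, went from 1.41 to -0.19 in E15 over E12 cells when the many-gene libraries were dropped, and from -0.24 to 1.62 in transplanted over E15 cells. In the latter 87.8% of its transplanted reads came from replicate 19. Dlgap5, which stabilises spindle microtubules, went from 0.3 to -1.17 in E15 over E12 cells. The motor Kif11, which pushes spindle poles apart, stood at 37.8, 53 and 77 CPM in E12, E15 and transplanted cells, and its transplanted over E15 ratio of 0.53 became 2.38. The microtubule polymerase Ckap5 stood at 83.2, 165 and 223 CPM, a transplanted over E12 ratio of 1.41, which was 0.84 without E12 replicate 5. Nusap1, a microtubule bundler read in 21 of 26 E15 cells, had an E15 over E12 ratio of 0.3 that turned to -0.47.

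Of kinetochore, centromere and checkpoint genes 8 of 12 were higher in E15 than in E12 cells, with a median of 0.34, and 7 of 12 in transplanted over E12 cells, with a median of 0.14. Its 3 members called higher at E15 were Cenpa, Cenpf and Ndc80, and Ttk was called lower, a share of 25% higher beside 25.3% of all genes. With the many-gene libraries dropped 6 of 12 were higher at E15, with a median of 0.02.

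Cenpa, the histone H3 variant that marks centromeres (chr5:30666777-30674830, plus strand), lay between 0 and 1496 CPM in E12 cells with a median of 20.6, between 0 and 1175 in E15 cells with a median of 312, and between 0 and 1256 in transplanted cells with a median of 388. The ranges overlap, and the highest cell was one of E12, although the E12 median was lowest. Summed levels were 133 CPM (123 to 143), 501 CPM (494 to 508) and 381 CPM (370.3 to 392). E15 was above E12 in 8 of 8 pools, with a ratio of 1.91 (1.35 to 2.52 with any cell left out) and 1.17 without the many-gene libraries, but -0.56 without all above 7000 genes. Cenpf, an outer kinetochore protein of G2 and M phase, was also above E12 in 8 of 8 pools, with 123, 306 and 283 CPM in the 3 groups and an E15 over E12 ratio of 1.31, or 0.8 without the many-gene libraries. Its transplanted over E12 ratio of 1.2 was -0.35 without all above 7000 genes. Birc5, the survivin subunit of the chromosomal passenger complex, was read in 17 of 20, 23 of 26 and 18 of 19 cells. Its E15 over E12 ratio was 0.99, 0.07 without the many-gene libraries and -0.19 without all above 7000 genes.

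Ttk, the Mps1 kinase of the spindle checkpoint (chr9:83834689-83872389, plus strand), had the lowest E15 over E12 ratio of the members. E12 cells ranged from 0 to 555 CPM with a median of 0, E15 cells from 0 to 269 with a median of 17.5, and transplanted cells from 0 to 202 with a median of 2.54. It was read in 8 of 20 E12 cells, against 17 of 26 E15 cells, so its E12 median was lowest although its summed E12 level was highest. That level was 143 CPM (133 to 154) at E12, 56 CPM (53.6 to 58.4) at E15 and 38.7 CPM (35.3 to 42.3) in transplanted cells. The E15 over E12 ratio was -1.34, -1.49 to -0.999 with any cell left out (the latter without E12 replicate 9), and -1.82 without the many-gene libraries. The transplanted over E12 ratio was -1.86, and 0.09 as the mean of ratios within pools. Hjurp, the chaperone that loads Cenpa, stood at 147, 88.3 and 62.8 CPM, a transplanted over E12 ratio of -1.21 (-1.57 to -1.05 with any cell left out). Cenpe, a kinetochore motor, had an E15 over E12 ratio of 0.0026 and stood at -2.47 without the many-gene libraries.

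Of cyclins, their kinase and other genes of mitotic entry 6 of 10 were higher in E15 over E12 cells, with a median of 0.37. In transplanted over E15 cells 5 of 10 were higher, with a median of -0.06 (-0.23 to 0.08 with any cell left out), and in transplanted over E12 cells 7 of 10, with a median of 0.36. Cdk1, the mitotic kinase, stood at 72.6 CPM (65.3 to 80.6) at E12, 127 CPM (123 to 130.2) at E15 and 104 CPM (98.1 to 109) in transplanted cells. Its cells ranged up to 539, 587 and 258 CPM with medians of 61.2, 116 and 63.7, and each group held cells at 0. Its E15 over E12 ratio of 0.79 was between 0.22 (without E12 replicate 5) and 1.1 (without E12 replicate 17). Ccnb1 and Ccnb2, the B-type cyclins, had ratios of 0.43 and 0.94, and E12 replicate 5 held 66.7% and 71.7% of their E12 reads. Without it the ratios were 1.42 and 2.15. GENCODE lists a pseudogene of each that could share reads.

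Cdc25c, the phosphatase that activates Cdk1, was called higher than at E12 in both groups. It stood at 18 CPM (14.5 to 22.2) at E12, 75 CPM (72.3 to 77.8) at E15 and 62.7 CPM (58.4 to 67.2) in transplanted cells, and was read in 6 of 20, 15 of 26 and 8 of 19 cells. The E15 over E12 ratio was 1.999 (1.54 to 2.56 with any cell left out) and 1.49 without the many-gene libraries. In transplanted over E12 cells it was 1.74, but -0.03 when each cell counted equally and -0.66 when thinned. Aurka, the kinase of spindle poles and mitotic entry, had ratios of 1.04 and 1.37 over E12, which were 0.48 and 0.81 without E12 replicate 5. Its E15 over E12 ratio was 0.16 without the many-gene libraries and -0.39 without all above 7000 genes, so neither the call nor the direction held. Cks1b, a Cdk1 partner, and Cdca3, a trigger of mitotic entry, were read in the most cells of this role and had E15 over E12 ratios of 0.31 and -0.14. The ubiquitin ligase G2e3 went from -0.66 to -2.1 when the many-gene libraries were dropped, and to 0.57 without E12 replicate 5.

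Summed over all libraries, chromosome and nuclear envelope genes were lower than at E12 more often than higher. In E15 over E12 cells 4 of 10 were higher, with a median of -0.18, and in transplanted over E12 cells 2 of 10, with a median of -0.47. With all libraries this was the 1 role of the 5 with a negative median in both comparisons with E12. Its medians without the many-gene libraries were -0.39 and -0.08, beside -0.0065 and -0.16 over all genes. There 3 and 5 of the 10 were higher. With all libraries above 7000 genes dropped its medians were -0.17 and -0.4, beside -0.07 and -0.31 over all genes. Kinetochore, centromere and checkpoint genes then had negative medians in both comparisons too, of -0.37 and -0.52. Mki67, the chromosome coat protein used as a proliferation marker, stood at 144 CPM (133 to 155) at E12, 82.4 CPM (79.5 to 85.3) at E15 and 54.7 CPM (50.7 to 59) in transplanted cells. Its transplanted over E12 ratio was -1.38, and -0.85 without E12 replicate 9, which held 35.8% of the E12 reads. Cbx5, the heterochromatin protein HP1 alpha, stood at 422, 224 and 246 CPM, an E15 over E12 ratio of -0.91 that was -0.43 without the many-gene libraries. Top2a, the topoisomerase that untangles sister chromatids, had cells of up to 1869 CPM at E12, 2449.9 at E15 and 815 in transplanted cells, and its ratios over E12 were -0.45 and -0.6. The chromatin proteins Hmgb2 and Anp32e and the lamina-associated Tmpo had E15 over E12 ratios of 0.33, 0.44 and -0.08, none of them called.

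Lbr, the lamin B receptor of the inner nuclear membrane (chr1:181815335-181843046, minus strand), was called lower in transplanted cells against both other groups. It was read in 9 of 20 E12 cells, 17 of 26 E15 cells and 6 of 19 transplanted cells, with highest cells of 1274, 1279.8 and 80.3 CPM and medians of 0, 3.83 and 0. A single cell held most of the reads in each group: E12 replicate 13 held 74.5%, E15 replicate 18 50.2% and transplanted replicate 15 83.6%. Summed levels were 49.2 CPM (43.2 to 55.8), 25.8 CPM (24.2 to 27.5) and 4.8 CPM (3.67 to 6.16), and without those cells 12.9, 13 and 1.1 CPM. The transplanted over E15 ratio was -2.21 (-3.67 to -1.27 with any cell left out), and the transplanted level was lower in 7 of 7 pools. The E15 over E12 ratio was -0.91, with a range of -1.84 to 0.94, so no direction held there. Dnah14, which is in the tables, overlaps Lbr on the other strand.

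**Figure D5:**
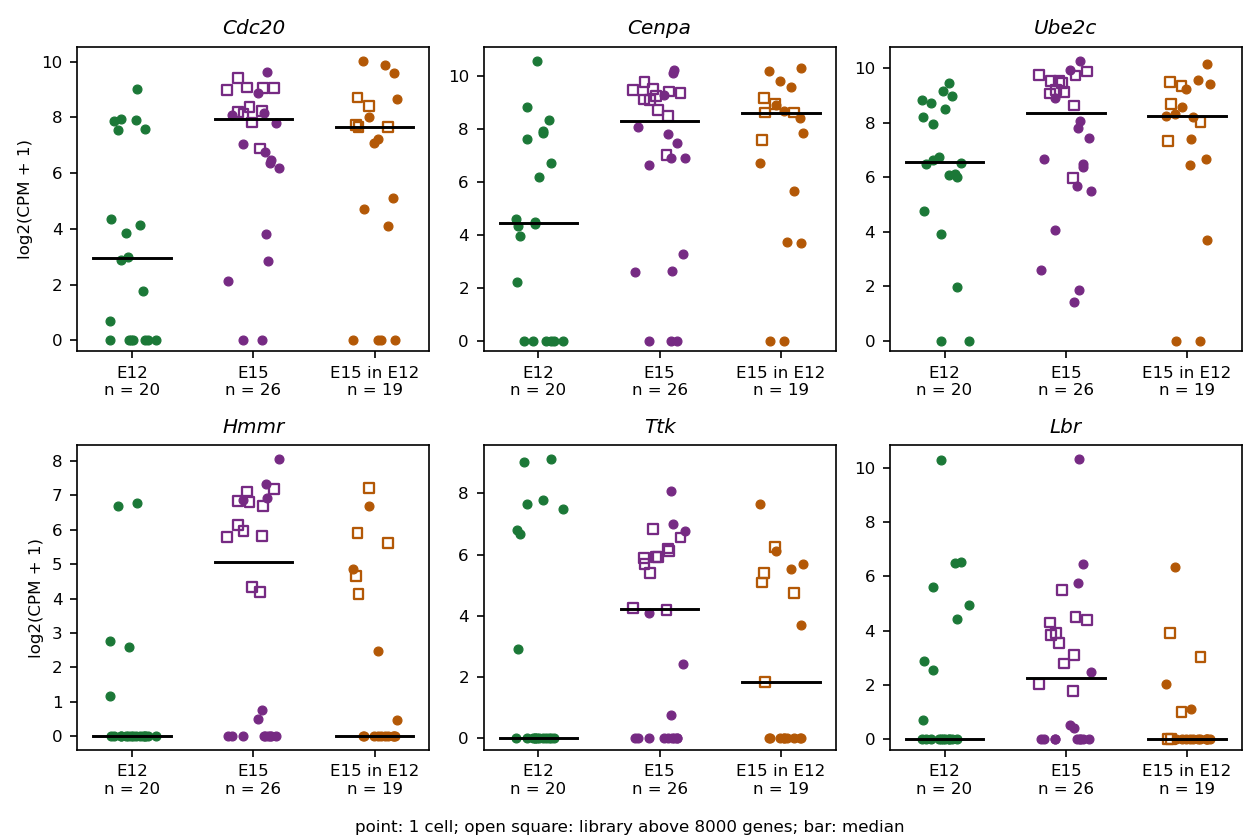
log2(CPM + 1) of 6 members in each cell, by group. Points are cells, open squares many-gene libraries and bars medians: Cdc20, Cenpa and Ube2c have their lowest medians at E12, and Hmmr, Ttk and Lbr have many cells at 0.

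How far the members moved together across cells was described on counts thinned to 25000 reads. Over 59 cells Pearson's r of each member with the mean of the others ran from -0.04 (Lbr) to 0.72 (Hmgb2), with a median of 0.405, and 39 of 51 were above 0.3. Over the 43 of these cells outside the many-gene set the median was 0.353, with Lbr lowest and Hmgb2 highest again. Top2a stood at 0.7, Birc5 at 0.67 and Ccnb1 at 0.6, while Cdc20 stood at 0.33.

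Outside the list, the 10 genes whose log2 level was most like the mean of the members over all 65 cells were Rtkn2, Dbnl, Rbbp8, St7l, Zswim5, Rbm48, Klhdc10, Zfp623, Mob2 and Fam8a1, with r of 0.75 to 0.81, and 0.59 to 0.73 over the 49 cells outside the many-gene set. The median over 10173 genes was 0.39, and the mean of the members itself had r of 0.81 with the log2 number of genes detected. All of these values come from the same libraries, and the part of the number of genes detected in them was not tested. Of the 10, 0 are on the list of further mitotic genes.

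Of 57 further mitotic genes with a row, 32 had a higher level in E15 over E12 cells and 25 a lower one, at a median of 0.17, 17 called higher (29.8%) and 9 lower (15.8%), beside 25.3% and 20.3% of all genes. Without the many-gene libraries 9 of 55 tested were called higher and 10 lower (16.4% and 18.2%), beside 24.2% and 21.6% of all genes. Their median was 0.03 without E12 replicate 5 and -0.08 without the many-gene libraries. In transplanted over E15 cells 19 were higher and 38 lower (median -0.18), and in transplanted over E12 cells 33 and 24 (median 0.26, or -0.0155 without transplanted replicate 19). Tubb5, a tubulin read in all 65 cells, stood at 1582, 3882 and 3134 CPM in E12, E15 and transplanted cells, and its E15 over E12 ratio of 1.29 was 0.51 without the many-gene libraries. Tuba1c, another tubulin, stood at 9.51, 78 and 32.4 CPM, with 41.2 CPM in the E15 cells outside the many-gene libraries. Zwilch, a kinetochore protein, had a transplanted over E15 ratio of -1.49, at 6.13 against 19 CPM, and levels of 0.431 and 35 CPM once those libraries were dropped.

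Of the regulators known to act on these promoters, 7 of 16 tested were higher in E15 over E12 cells, with a median of -0.35, 0 called higher and 3 lower (18.8%), beside 25.3% and 20.3% of all genes. E2f7 and E2f8, repressors of the E2F family, were called lower with any cell left out, as 6.97% of all genes were. They stood at 96.7 against 17 CPM and 34 against 5.9 CPM, and at 19.5 and 1.27 CPM in the E15 cells outside the many-gene libraries. Tfdp1, the partner of E2F factors, stood at 109, 63.6 and 69 CPM in the 3 groups, with 101 and 136 CPM at E15 and in transplanted cells outside the many-gene libraries. The NF-Y subunit Nfyb stood at 105, 132 and 70.2 CPM, with 121 and 41.2 CPM outside them.

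Subunits and partners of the anaphase-promoting complex had a median of -0.1 in E15 over E12 cells, with 6 of 15 higher. Among these, 3 were called higher (20%) and 0 lower, beside 25.3% and 20.3% of all genes. With any cell left out 2 were still called higher, Anapc16 and Anapc15, where 19.3% of all genes were. They stood at 32.4 against 171 CPM and 2.83 against 16.1 CPM, and at 189.8 and 6.98 CPM in the E15 cells outside the many-gene libraries. Fzr1, the activator that replaces Cdc20 late in mitosis, stood at 77.3, 72.1 and 116 CPM in the 3 groups, with 192 CPM in the transplanted cells outside the many-gene libraries, and had an E15 over E12 ratio of -0.1 beside 2.93 for Cdc20.

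From the deposited log10 values directions holding 74.5% of the variance of genes detected are missing. These directions also hold 24.2%, 8.81% and 3.31% of the variance of membership in the E12, E15 and transplanted groups. Part of the difference between groups is therefore missing from these values. They are on another log base than the ratios above, so sizes are not set against each other. The median over the 51 members of the difference between group means was 0.0555 for E15 minus E12, -0.0736 for transplanted minus E15 and -0.0084 for transplanted minus E12, beside 0.0256, -0.0452 and -0.0189 over all genes. On that scale 37, 17 and 23 of the 51 members were higher in the first group. Mki67 had the highest value for E15 minus E12 (0.32), though its summed CPM was lower at E15, and Hjurp the lowest (-0.27). For transplanted minus E12 cells Cenpa was highest (0.25) and Kif20b lowest (-0.24).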

How the data were processed

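Libraries of 65 single cells were made with a 3' SMART-Seq v4 kit and Nextera XT, per the labels' protocols, and the submitters' processing notes name STAR, HTSeq and the mm10 build, with no versions given. The values as deposited by the authors are on a log10 scale: from the values themselves, log10 of 1 plus scaled counts, centred per gene over the cells, with 2 further directions over cells regressed out. The planned design assumed counts, so whole reads were recovered from these residuals. All 356667 non-zero values came out within 0.01 of a whole number, for 9935 genes from their cells at 0 and for 472 by a search. Every gene has a read in at least 6 cells. The steps were tested on simulated data.

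Groups and pools come from the labels. CPM, log2 ratios (pseudocount 1 CPM, at least 5 CPM in either group) and calls (at least 1 in size) were computed on summed reads. The members, lists and limits were chosen with earlier results of these data known. Members named are the 2 per role read in the most cells, the 4 highest and 4 lowest ratios per comparison among those of at least 20 CPM, and those whose sign changed without the libraries above 8000 genes with a ratio of at least 1 in size. Further members were added after their values were seen: Aurka, Ccnb1, Ccnb2, Cdk1, Cenpf, Gas2l3, Kif23, Ndc80, Top2a and Tubb4b. From other lists the 2 genes read in the most cells and the 2 with the largest ratios per comparison could be named, besides the 10 most alike genes among those read in at least 20% of cells. Alternatives were means over cells, thinning, size factors, totals without ribosomal and mitochondrial genes, filters (none or 20 CPM), pseudocounts (0.1 and 5 CPM), ratios within pools, the deposited values, and leaving out each cell, each pool or libraries above 8000 or 7000 genes. The tools were pandas 2.3.3, SciPy 1.17.1, NumPy 2.4.6, Matplotlib 3.10.9 and Numba 0.67.0 under Python 3.11.15.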

Additional observations from a re-analysis of the deposited data

How the results depend on the processing

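The median log2 ratio of the members moved with most treatments of depth. In E15 over E12 cells (0.44) it was 0.27 as a mean over cells, 0.13 thinned to 25000 reads, 1.48 as a mean of ratios within pools (all genes 1.33), -0.0079 with libraries above 8000 genes dropped and -0.18 with a limit of 7000. It ranged over 0.33 to 0.6998 with a cell left out and 0.27 to 0.61 with a pool left out. In transplanted over E15 cells (-0.16) the values were -0.49 thinned, -0.86 within pools (all genes -0.63), 0.46 with the limit of 8000 genes and 0.11 with that of 7000, with -0.31 to -0.058 over cells and -0.26 to 0.048 over pools. In transplanted over E12 cells (0.34) they were 0.15 as a mean over cells, -0.053 thinned and 0.89 within pools (all genes 0.801). There they were -0.11 without libraries above 7000 genes and -0.0084 for the deposited log10 values, with 0.22 to 0.61 over cells and 0.17 to 0.71 over pools. With the limit of 7000 the medians of all genes were -0.069, -0.22 and -0.31 in the 3 comparisons, in this order. Of 33 called ratios of members 7 stayed at least 1 in size, in the same direction, under every alternative. They were those of Cdc20, Gas2l3 and Lbr in transplanted over E12 cells and of Cdc20, Gas2l3 and Hmmr in E15 over E12 cells. The last was that of Lbr in transplanted over E15 cells. This count takes the ratio alone, not whether the gene passed the filter of each alternative. Gas2l3, with 3 reads at E12, stood at 0.607, 15.7 and 8.1 CPM in the 3 groups, under the filter of 20 CPM. Without the many-gene libraries its transplanted and E12 levels were 2.8 and 0.607 CPM, under 5 CPM, so it was not called there. Signs turned in E15 over E12 cells for Kif20b (-1.21 as a mean over cells, -2.1 thinned, -1.49 and -3.86 without libraries above 8000 and 7000 genes), Ckap2l (-0.19 and -0.51 without the same libraries), Aurka (-0.051 thinned and -0.39 with the limit of 7000), and, with that limit, Ube2c (-1.3) and Cenpa (-0.56). In transplanted over E12 cells they turned for Kif11 (-0.33), Kif23 (-0.073), Cdc25c (-0.0305) and Psrc1 (-0.14) as means over cells, for Tubb4b (-0.25), Kif23 (-0.34), Cdc25c (-0.66) and Psrc1 (-0.053) thinned, for Hmmr (-0.85) without libraries above 8000 genes, for Cdc25c (-1.28), Psrc1 (-1.05), Cenpf (-0.35) and Ckap2l (-0.404) without those above 7000, and for Mki67 (0.37) and Ttk (0.0896) within pools. Members called higher and lower in E15 over E12 cells (13 and 1) were 8 and 4 as means over cells, 9 and 5 thinned, 34 and 0 within pools and 8 and 13 with libraries above 7000 genes dropped. In transplanted over E15 cells (0 and 1) they were 3 and 7, 1 and 11, 0 and 21 and 12 and 11 in the same order, and in transplanted over E12 cells (14 and 4) 12 and 8, 7 and 11, 23 and 5 and 8 and 15. With libraries above 7000 genes dropped, 24.2% and 26.6% of all genes were called in E15 over E12 cells. The shares were 22.7% and 33.9% in transplanted over E15 cells and 21.6% and 35.3% in transplanted over E12 cells. For means over cells, thinned counts and values within pools the shares of all genes were not computed, so those counts cannot be set against a background. With a cell left out the counts higher ranged over 11 to 21, 0 and 10 to 19 in the 3 comparisons and those lower over 0 to 6, 1 to 3 and 3 to 7. Shares of all genes for each left-out cell were not computed either, so these ranges have no background beside them. The cause of these shifts was not tested. Median-of-ratios size factors shifted all ratios over E12 by 0.18 (E15) and 0.21 (transplanted). The groups share pools, which served as blocks in the values within pools. By replicate number no paired analysis was possible because these numbers follow accession order and the labels number no animals.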
